A study of Mus musculus with 12 samples.

Results

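The rows described here are the gene-level rows of an exon array study that hold a single probe set and carry no gene symbol. They were found by 2 criteria that use no measured value: the row's identifier also stands in the exon-level table, and the exon-level platform annotation gives that probe set no symbol. Of 23332 gene-level rows, 5363 (22.99%) met both criteria. They make up 81.5% of the 6577 gene-level rows that are single probe sets, and the other 1214 carry a symbol in the exon-level annotation. The gene-level annotation names none of the 5363 either, so each is called here by its probe set number. No sequence or position of these probe sets was used here.

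Total RNA came from the cerebellum of female mice at postnatal day 30. On 6 Affymetrix Mouse Exon 1.0 ST arrays, 3 held RNA of wild-type mice and 3 held RNA of NMF291–/– mice, which the series text calls biological replicates. The mutants are homozygous for a deletion of 5 nucleotides in Rnu2-8, a gene for U2 snRNA, and the labels name no other allele and no treatment. Strain background is not given in the sources used here. The mutation is carried by every cell of the mouse, and the RNA is of the whole cerebellum.

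U2 snRNA is the RNA component of the spliceosome that recognises an intron by pairing with its branch site, an early step in removing that intron from the transcript. When splicing of an intron is slow or fails, intron sequence stays in the RNA, where array probes placed in introns can detect it. A probe set is a small group of probes for 1 stretch of transcribed sequence, usually an exon or part of one. Besides probe sets for annotated exons, the exon array design is known to carry control probe sets placed in exons and in introns of constantly expressed genes, and background probes. The sources used here do not mark which rows are such controls, so no row below is assigned to an exon, an intron or a control class.

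Markers of the labelled tissue were high on all arrays. The mean of 7 granule neuron markers, among them Gabra6, Zic1 and Neurod1, was 11.32 to 11.48 (log2 signal). That of 4 of 5 listed Purkinje cell markers was 11.94 to 12.09, against 7.09 to 7.24 for 3 of 5 listed forebrain neuron markers. Of these lists 1 granule neuron marker passed, Gabra6, a GABA receptor subunit, which fell by 0.46 (log2; limma, adjusted p = 0.0165). Of 15 listed microglia markers 14 were measured. By the same limma fit, described next, 11 of them rose in the mutant and none fell, beside 3.94% and 1.81% of all gene-level rows. Aif1, P2ry12 and Tmem119 did not pass. The marker lists were chosen with earlier results of these data known. The mean level of the 14 microglia markers was 8.04 to 8.12 on the wild-type arrays and 8.83, 9.42 and 8.99 on mutant arrays 1, 2 and 3. Fewer cells of a type and less RNA per cell cannot be told apart in such bulk RNA. The 7 choroid plexus markers, of which none passed, had a mean of 7.79 on mutant array 3 and of 8.92 to 9.12 on the other 5 arrays. No marker is listed at 0 in these log-scale tables.

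The unnamed single probe sets lay lower than the rest of the table. Their mean over the 6 arrays had a median of 7.17 (log2), with the 25th percentile at 5.84 and the 75th at 8.28, against a median of 8.24 for the 16755 transcript clusters, which pool all probe sets of a gene, and of 9.996 for the single probe sets with a symbol. Of the 5363, 2040 (38.0%) lay under 6.61, the 25th percentile of the gene-level table, against 21.1% of all other rows. The range was wide all the same, from 2.51 to 14.08, and 51 probe sets had a mean of 12 or more. Values also varied more between arrays of 1 genotype: the median residual SD was 0.209 for these probe sets, 0.101 for the single probe sets with a symbol and 0.069 for transcript clusters. Across the 5363 probe sets, which are not independent, correlations ran from 0.975 to 0.982 between arrays that share a genotype and from 0.970 to 0.975 between the genotypes. Over all other rows these ranges were 0.996 to 0.997 and 0.993 to 0.995.

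The comparison of mutant with wild-type arrays asks which of these probe sets differ in signal when a U2 snRNA gene is mutated. Most of the unnamed single probe sets had a slightly higher signal in the mutant, in the values as deposited and under the other scalings run, except when arrays were centred on these probe sets themselves. The difference, mutant minus wild type, was above 0 for 3498 of 5363 (65.2%), with a median of 0.09 (log2), and from -0.07 at the 25th percentile to 0.28 at the 75th. Over all gene-level rows the median difference was 0.02, with 55.2% of rows above 0; over transcript clusters it was 0.004, with 51.6% above 0. The single probe sets with a symbol were at 0.04, with 60.3% above 0. These medians are descriptions and carry no test.

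**Figure D1:**
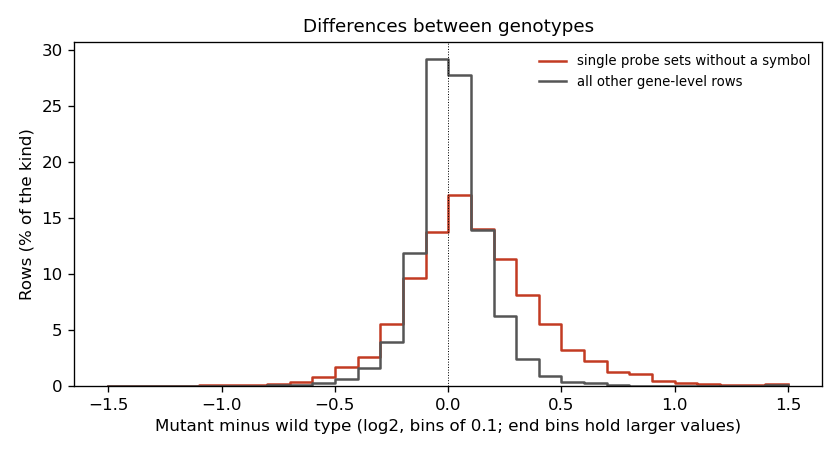
Distribution of the difference between genotypes (x axis, mutant minus wild type, log2, in bins of 0.1) as the percentage of rows of each kind (y axis), for the 5363 single probe sets without a symbol and for all other gene-level rows. The distribution of the unnamed probe sets is broader and lies further to the right, with a median of 0.09 against 0.01.

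The shift was seen on each mutant array. The median signal of the 5363 probe sets was 7.17, 7.12 and 7.09 on wild-type arrays 1, 2 and 3 and 7.28, 7.28 and 7.20 on mutant arrays 1, 2 and 3. All 3 mutant medians lay above all 3 wild-type medians, with mutant array 3 nearest to wild type. The corresponding medians of transcript clusters were 8.22, 8.24 and 8.21 on the wild-type arrays and 8.23, 8.28 and 8.25 on the mutant arrays. There the genotypes overlapped. Single probe sets with a symbol did not overlap, at 9.997, 9.967 and 9.953 in wild type and 10.029, 10.027 and 10.037 in the mutant. Nor did all gene-level rows, which include the unnamed probe sets, at 8.03, 8.02 and 7.9998 and at 8.05, 8.09 and 8.05. Separation of the array medians was thus not particular to the unnamed probe sets. Relative to the cluster median of the same array, the unnamed probe sets stood at -1.042, -1.112 and -1.124 on the wild-type arrays and at -0.951, -1.0003 and -1.054 on the mutant arrays. On that relative scale mutant array 3 stood 0.01 lower than wild-type array 1, so the genotypes overlapped.

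Measured against each probe set's own wild-type mean, 63.6%, 65.6% and 58.7% of the unnamed probe sets were higher on mutant arrays 1, 2 and 3. For wild-type arrays 1, 2 and 3, which enter that mean themselves, the shares were 58.6%, 49.4% and 43.2%. Wild-type array 1 and mutant array 3 were thus alike in this share. In 2031 probe sets (37.9%) all 3 mutant arrays lay above the wild-type mean, and in 797 (14.9%) all 3 lay below it. Among transcript clusters these shares were 32.7% and 27.2%; 47.6%, 54.6% and 55.1% of them were above the wild-type mean on mutant arrays 1, 2 and 3, and 51.5%, 55.2% and 42.9% on the wild-type arrays.

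**Figure D2:**
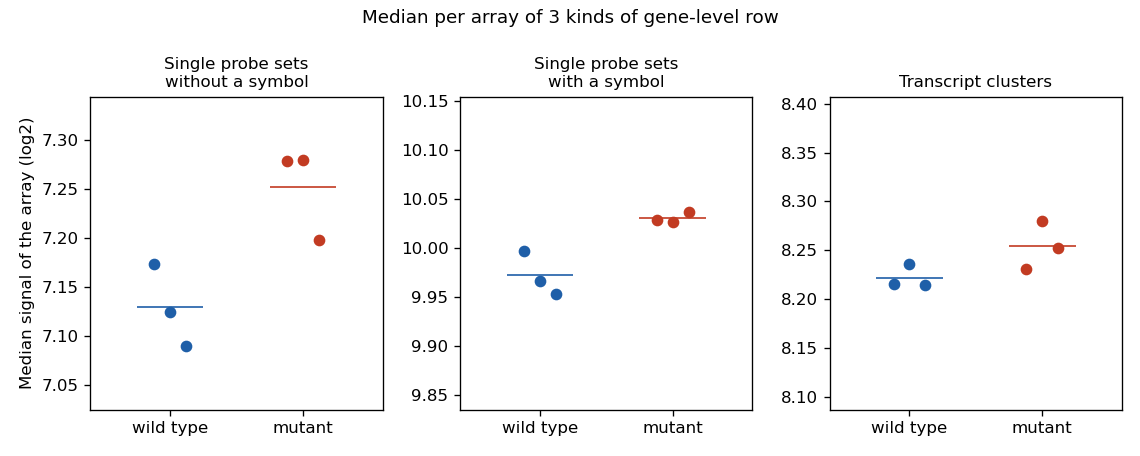
Median log2 signal of each array (points; y axis, log2, the same span in each panel) for single probe sets without a symbol, single probe sets with a symbol and transcript clusters, with the mean of the 3 arrays of a genotype as a line. Unnamed probe sets had medians of 7.09 to 7.17 in wild type and 7.20 to 7.28 in the mutant.

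Tested one by one, 207 of the 5363 probe sets rose in the mutant and 23 fell. The test was limma's moderated test over all 23332 gene-level rows, two-sided, Benjamini-Hochberg adjusted over all of them, and a row passed at an adjusted p under 0.05. Of all rows 3.94% were higher and 1.81% lower, so the share of risers among the unnamed probe sets, 3.86%, is near the table's, while their share of fallers, 0.429%, is below it. Of their 230 calls 90.0% were rises, against 64.1% of the 1112 calls among all other rows. At an unadjusted p under 0.05, 913 (17.0%) were higher and 228 (4.25%) lower, beside 15.2% and 7.83% of the whole table. Every mutant array lay above every wild-type array in 919 probe sets (17.1%, against 18.9% of all rows) and below in 255 (4.75%, against 11.1%).

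Direction counts depended on the scaling. Centring each array on the median of all rows, of transcript clusters or of the unnamed probe sets themselves gave 147, 155 and 97 rises against 42, 32 and 77 falls, and quantile normalization gave 154 and 37. The share of rises among calls was 77.8%, 82.9%, 55.7% and 80.6% in that order, and the corresponding share over the whole table was 46.9%, 55.2%, 23.8% and 53.3%. The share of unnamed probe sets with a difference above 0 was 56.9%, 59.99%, 44.6% and 58.7%. The median difference of the unnamed probe sets stood above that of all rows by 0.07 (log2) under each of these scalings, as it did in the values as deposited. Centring shifts both medians equally, so that gap is fixed by construction there, but not under quantile normalization. Centring on the unnamed probe sets moved the median of all rows to -0.11.

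The counts fell when any 1 array was left out, as did those of the whole table: 126 rises and 6 falls passed without wild-type replicate 1, 48 and 2 without wild-type replicate 2, 40 and 2 without wild-type replicate 3, 20 and 0 without mutant replicate 1, 32 and 1 without mutant replicate 2, and 21 and 1 without mutant replicate 3. In the same order the whole table had 356 rises and 140 falls, 114 and 48, 110 and 57, 61 and 26, 113 and 46, and 50 and 26. The median difference over the 5363 was 0.08 to 0.11 in these 6 fits. Each such fit has 1 array fewer and so fewer residual degrees of freedom. That loss was not separated from the influence of the array left out. Without mutant replicate 1, where no fall passed limma's test, 245 probe sets were lower and 784 higher at an unadjusted p under 0.05. The whole table was not counted at that threshold in this fit. With all arrays it leaned upward too, with 15.2% of rows higher and 7.83% lower.

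Sizes of the 207 rises ran from 0.27 to 2.35 (log2), with a median of 0.61, which is 1.53-fold. A rise of 1 or more was found in 24 probe sets, a rise of 0.5 to 1 in 112 and a smaller one in 71. The median wild-type mean was 6.47 for rises of 1 or more, 7.40 for rises of 0.5 to 1 and 8.16 for smaller ones. That order is partly set by the choice of rows, since the rise contains the wild-type mean and small rises at low levels, where the residual SD is larger, seldom pass. The mutant means of the 24 large rises had a median of 7.81 and ran from 4.58 to 9.33. Of all gene-level rows that passed with a rise of 1 or more (0.206% of the table), 24 of 48 were unnamed single probe sets, 23 were transcript clusters and 1 was a single probe set with a symbol. The unnamed probe sets form 22.99% of the table. Their median residual SD was larger, at 0.209 against 0.069 for transcript clusters. In 55 of the 207 the wild-type mean lay under the table's 25th percentile of 6.61, and 1 of these had a mutant mean at or above the table median of 8.04.

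Probe set 4793884 had the largest rise. It was at 6.57, 6.30 and 6.12 (log2) on the wild-type arrays and at 8.86, 8.54 and 8.64 on the mutant arrays. The genotypes were far apart on all arrays, and the difference of 2.35 ± 0.14 (SE) corresponds to a 5.11-fold rise (limma, adjusted p = 0.00456). This probe set went from below the table's 25th percentile to above its median.

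Probe set 4668534 had the smallest p of all 5363. Its values were 6.79, 6.86 and 6.63 in wild type and 8.66, 8.72 and 8.72 in the mutant. Its 3 mutant arrays were within 0.06 of each other, and the 3.84-fold rise (1.94 ± 0.07, SE) had an adjusted p of 0.00200 by limma.

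Probe set 5141825 started from the lowest level among the 8 largest rises. It was at 4.69, 4.96 and 3.999 on the wild-type arrays and at 6.59, 6.66 and 7.09 on the mutant arrays. The wild-type arrays were spread widely, and the rise was 2.23 ± 0.27 (limma, adjusted p = 0.0158). Probe set 4918540 was at 7.08, 7.44 and 6.91 in wild type and at 9.51, 9.12 and 8.96 in the mutant, the highest mutant level of the 8. Its rise was 4.15-fold (limma, adjusted p = 0.00986).

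The remaining large rises were of similar form, with no overlap of the genotypes, which the rule that chose them required. Probe set 5262056 was at 5.64, 5.92 and 5.26 in wild type and 7.56, 7.51 and 7.65 in the mutant, a 3.91-fold rise. Probe set 5560520 was at 5.80, 5.28 and 5.34 and at 7.57, 7.27 and 7.18, a 3.65-fold rise. Mutant array 1 was the highest there, as it was in the next probe set. Probe set 5065728 was at 6.86, 6.84 and 7.005 and at 8.86, 8.33 and 8.48, a 3.14-fold rise. Probe set 4797688 was at 5.98, 6.59 and 6.25 and at 7.95, 7.59 and 7.85, a 2.88-fold rise. These 4 had limma adjusted p-values of 0.00849 to 0.0137. No mutant array was highest throughout: over all 207 rises the highest value was on mutant array 1 in 78, on mutant array 2 in 81 and on mutant array 3 in 48.

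Smaller rises could be as well supported where the replicates were close. Probe set 5548929 was at 8.28, 8.34 and 8.24 in wild type and at 9.02, 8.98 and 8.96 in the mutant, a 1.62-fold rise with a limma adjusted p of 0.00535. Probe set 4757135 was at 9.36, 9.43 and 9.42 in wild type and at 10.31, 10.22 and 10.14 in the mutant, a 1.76-fold rise (limma, adjusted p = 0.00619). These 2 and the 2 probe sets 4668534 and 4793884 had the smallest p-values of the set.

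The 23 falls were smaller, with a median of -0.50 and a range of -1.02 to -0.23 (log2), and a single one reached 1, as 0.0129% of the whole table did. Probe set 4939805 was at 6.49, 6.96 and 6.55 in wild type and at 5.38, 5.94 and 5.62 in the mutant. It fell by 1.02 ± 0.18 (SE), to 0.494 of its wild-type level, with a limma adjusted p of 0.0375. Probe set 4658803 fell from 8.31, 7.98 and 8.37 to 7.43, 7.74 and 7.47, and probe set 4326986 from 8.48, 8.72 and 8.36 to 7.99, 7.90 and 7.77. These 2 were the brightest of the 8 largest falls, at 0.628 and 0.644 of their wild-type levels.

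The other 5 of the 8 largest falls lay at lower levels. Probe set 4452554, with the smallest p among these 8, was at 6.13, 6.11 and 6.34 in wild type and at 5.54, 5.53 and 5.68 in the mutant (limma, adjusted p = 0.0203). Probe set 4902373 was at 6.76, 7.001 and 6.94 and at 6.40, 6.19 and 6.16. Probe set 4881126 was at 6.15, 6.43 and 6.46 and at 5.75, 5.64 and 5.77. Like the named rises, all 8 falls had no overlap of the genotypes, which the rule that chose them required. Probe set 4853613 was at 7.03, 7.09 and 7.28 and at 6.54, 6.75 and 6.36, and probe set 5291429, the dimmest of the 8, at 5.20, 5.52 and 5.06 and at 4.42, 4.69 and 4.61. The highest limma adjusted p of the 8 was 0.0477, for probe set 4853613. Each of the 8 falls missed the threshold in 7 to 10 of the 16 or 17 alternative fits run on it, and each of the 8 largest rises in 1 to 4 of them.

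**Figure D3:**
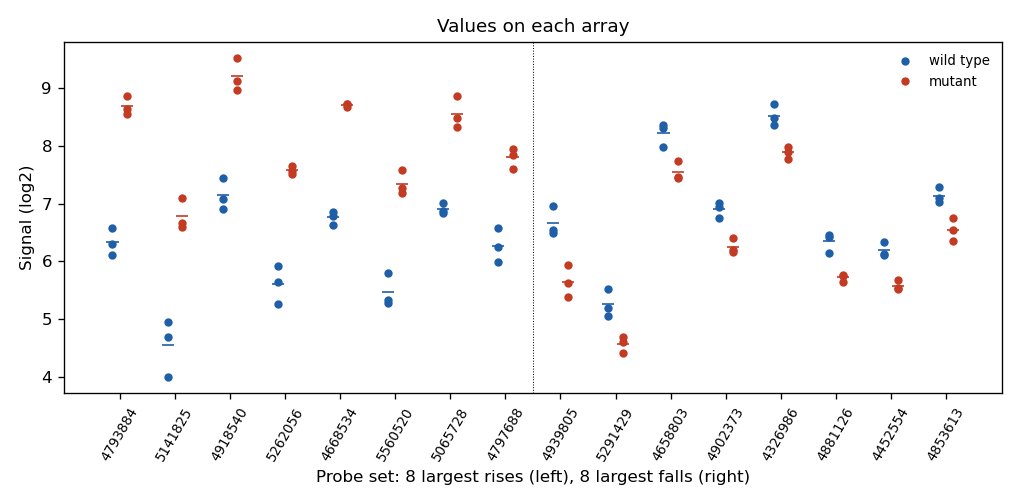
Log2 signal (y axis) on each of the 6 arrays for the 8 largest rises and the 8 largest falls among unnamed single probe sets that passed the test without overlap of the genotypes (x axis, probe set number), with a line at each genotype's mean. Rises reached 2.35 and falls 1.02 on the log2 scale.

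Some large differences did not pass. A difference of 1 or more without a call was found in 21 of the unnamed probe sets and one of -1 or less in 3. No count of uncalled differences over the other rows stands beside these, so a lean particular to the unnamed probe sets was not tested. Among called differences of that size the other rows leaned upward too, with 24 rises and 2 falls. Median residual SD was also larger in the unnamed probe sets, at 0.209 against 0.069 for transcript clusters. The largest uncalled difference of the unnamed probe sets was that of probe set 5099832, at 4.53, 3.11 and 3.45 in wild type and 4.93, 5.26 and 5.31 in the mutant. Its genotypes did not overlap (1.47 ± 0.37, SE, limma, adjusted p = 0.0776). Probe set 5385208 was at 3.37, 3.45 and 4.58 in wild type and 5.68, 5.88 and 4.16 in the mutant, where mutant array 3 lay among the wild-type values (limma, adjusted p = 0.191). Both were chosen after their values were seen.

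The brightest unnamed probe sets lie at the top of the gene-level scale, and whether their probes were saturated was not tested. Probe set 4486224, the highest of all, was at 14.06, 14.13 and 14.08 in wild type and at 14.10, 14.03 and 14.08 in the mutant. Probe sets 5269471, 4573237 and 5173575 had means of 14.03, 14.01 and 13.80 over the 6 arrays. The genotypes of probe sets 4486224, 4573237 and 5173575 overlapped, and the differences of the 4 ran from -0.04 to 0.01, with SEs of 0.04 and limma adjusted p-values of 0.592 to 0.953. Of the 51 unnamed probe sets with a mean of 12 or more, limma called 0, while 5 had an unadjusted p under 0.05. Their differences ran from -0.12 to 0.19, with a median of 0.01. Among all other rows of that level 11 of 276 (3.99%) were called, 74 had an unadjusted p under 0.05, and differences ran from -0.47 to 0.36.

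**Figure D4:**
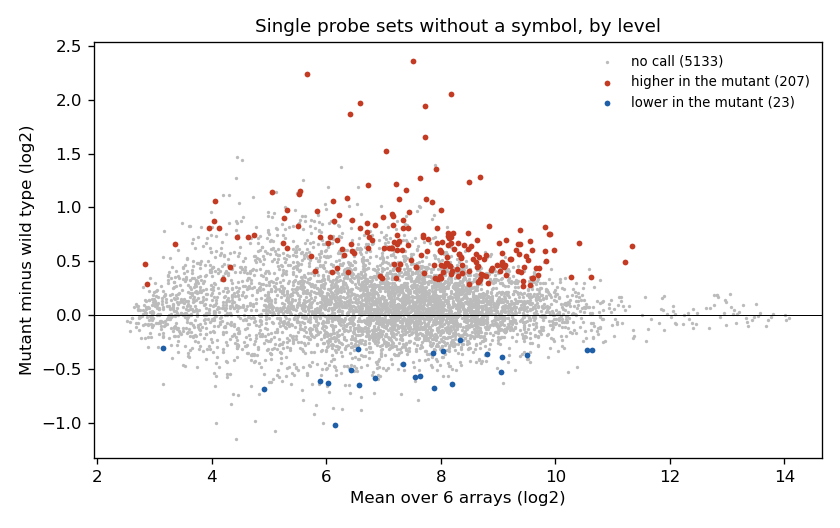
Difference between genotypes (y axis, mutant minus wild type, log2) against the mean over 6 arrays (x axis, log2) for each of the 5363 probe sets, with the 207 rises and 23 falls in colour. Called rises occurred from low to middle-high levels and none at 12 or above.

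Rises were found in each of 4 level bands. By quartile of the gene-level table, the unnamed probe sets numbered 2040, 1717, 1134 and 472 from the lowest band to the highest. In that order 44, 66, 69 and 28 rose and 8, 6, 6 and 3 fell. Their median difference was 0.10, 0.10, 0.09 and 0.05 in these bands. All other rows had medians of -0.015, -0.006, 0.029 and 0.022, so the distance to the unnamed probe sets was widest in the 2 lower bands. From the lowest band to the highest, 2.16%, 3.84%, 6.08% and 5.93% of the unnamed probe sets rose, against 0.554%, 2.02%, 5.89% and 6.19% of the other rows. In that order 0.392%, 0.349%, 0.529% and 0.636% of them fell, against 0.448%, 0.753%, 2.51% and 4.35% of the other rows. These shares are descriptions, and the residual SD in the lowest band was 0.303 for the unnamed probe sets and 0.109 for the other rows.

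A transcript cluster averages many probe sets, so the exon-level table gives a nearer comparison, in which every row is a single probe set. The values of the 5363 are the same there, and the fit was repeated over all 229581 probe sets. Of the 5363, 58 rose (1.08%, beside 0.603% of the whole exon-level table) and none fell (beside 0.402%). All 58 were among the 207 of the gene-level fit, with rises of 0.56 to 2.35. At an unadjusted p under 0.05, 851 were higher (15.9%, beside 10.1%) and 195 lower (3.64%, beside 6.80%). Of the 333 exon-level probe sets that passed with a rise of 1 or more, 21 (6.31%) were among the 5363, which form 2.34% of that table. The 8 largest rises all passed here too, with limma adjusted p-values of at most 0.0282, and the 8 largest falls did not pass.

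Other unnamed probe sets stand only in the exon-level table. Of these 10493 probe sets 56 rose (0.534%) and 28 fell (0.267%), and their median difference was 0.002, with 50.5% above 0. They differ in level as well, with a median of 8.16. Within bands of the same level the distance remained: from the lowest to the highest quartile of the exon-level table the median difference was 0.10, 0.10, 0.07 and 0.02 for the 5363 and -0.001, 0.003, 0.009 and 0.001 for unnamed probe sets only at exon level. Named probe sets only at exon level had 0.004, 0.02, 0.02 and 0.01. Residual SDs were close at matched level, at 0.290 and 0.271 in the lowest band and 0.095 and 0.084 in the highest for the 2 kinds of unnamed probe set. The single probe sets with a symbol had band medians of 0.03, 0.04, 0.05 and 0.04, and 1 of 1214 passed at exon level.

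**Figure D5:**
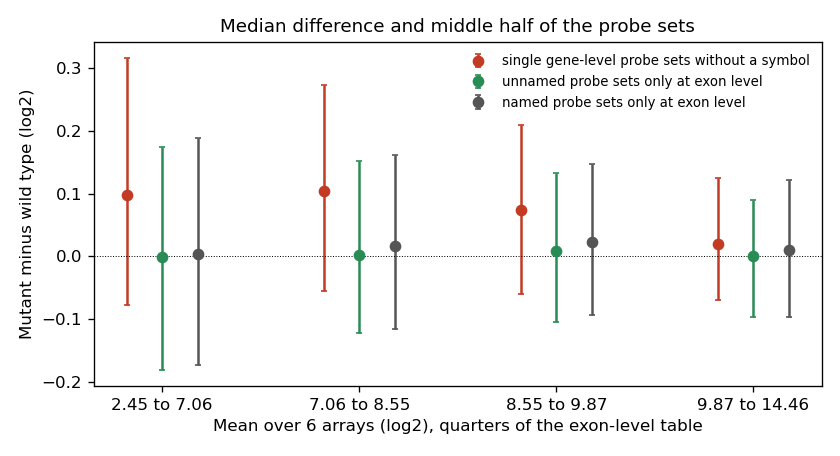
Median difference between genotypes (y axis, mutant minus wild type, log2; bars from the 25th to the 75th percentile of probe sets) in 4 bands of mean signal (x axis, log2, quartiles of the exon-level table). The single gene-level probe sets without a symbol lie at 0.10, 0.10, 0.07 and 0.02, and both other kinds drawn between -0.001 and 0.02. Single gene-level probe sets with a symbol, which are not drawn, had medians of 0.03, 0.04, 0.05 and 0.04. In the highest band these were above the unnamed ones.

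Microglia markers and the unnamed probe sets both stood higher on mutant arrays, and the 3 mutant arrays were ordered 2, 3, 1 by the microglia mean and 2, 1, 3 by the median deviation of the unnamed probe sets from wild type (0.12, 0.10 and 0.07). The low choroid plexus level of mutant array 3 went with the smallest of these deviations. Their part in the result was not tested. Without mutant array 3 the median difference over the 5363 was 0.11, and without mutant array 2 it was 0.08.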

How the data were processed

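The authors deposited 2 tables of the same 6 arrays, at gene and exon level, in log2 units, a base read here from the range of the values. The submitters' processing notes name mm8 as genome build. How background was corrected, arrays were scaled and probes were summarised is not given in the sources used here. The unstated scaling could move all differences, so other scalings were run. Arrays give no counts, and 3 arrays per genotype limit the precision. The gene-level values of all 6577 single probe sets equal those at exon level, so the tables are not separate evidence.

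Mutant minus wild type was tested with limma 3.58.1 (lmFit, eBayes, no covariate, no filter) in R 4.3.3, and p-values were Benjamini-Hochberg adjusted within a table. Named probe sets followed a rule: called without overlap, the 8 largest rises, the 8 largest falls, the 4 smallest p, and the 4 highest levels. Marker genes used the transcript cluster with 1 symbol and the highest mean. The set, lists and rule were chosen with earlier results of these data known. On simulated arrays over 23332 rows with 200 changed unnamed probe sets and no other change, limma recovered 4 of 100 changes of 0.5 and 30 of 100 of 1 (log2), with 1 false call among 35. In the data 1342 rows passed, and with fewer calls the adjustment demands smaller p-values. The simulated recovery may thus be lower than that of the fit on the data. Figures were drawn with matplotlib 3.10.9.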

Additional observations from a re-analysis of the deposited data

How the results depend on the processing

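Beside the 207 rises and 23 falls, other settings gave these counts. Counts of the whole table are given in parentheses. Restricting the fit to rows at or above the 25th percentile left 3323 probe sets and gave 289 rises and 46 falls (1480 and 668), and eBayes with trend gave 327 and 47 (1559 and 714). An adjusted p under 0.1 gave 452 and 97 (1918 and 870), and the fit over exon-level probe sets gave 58 and 0 (1384 and 923), with another variance prior and adjustment over more rows. Robust eBayes at 190 and 18 (855 and 386) and array weights at 255 and 31 (1135 and 520) stayed within 1.5 times. Falls numbered 37 after quantile normalization, 42 after centring on all rows, 32 on transcript clusters and 77 on the unnamed probe sets, with 97 rises in the last. The median difference of 0.09 was 0.0394 after centring on all rows and -0.0339 after centring on the unnamed probe sets, which sets it near 0 by construction. Leaving out 1 array gave 20 to 126 rises, 0 to 6 falls and medians of 0.08 to 0.11.

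With the replicate number as a replicate block, limma called 0 rises and 0 falls, and 0 rows of the whole table. At an unadjusted p under 0.05, 1013 of the unnamed probe sets were higher and 270 lower under the block, against 913 and 228 without it. The whole table was not counted at that threshold under the block. Without the block 15.2% of its rows were higher and 7.83% lower. The labels give replicate numbers but do not say that these pair the arrays. Same-numbered arrays deviated from their genotype means with correlations of -0.01, -0.04 and 0.03, which does not settle whether they were paired. The block also uses up residual degrees of freedom, and its effect on the calls was not separated from that loss.

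No named rise or fall changed sign under any alternative. All of them were chosen for a call without overlap of the genotypes, so leaving out 1 array could not change the sign. Settings that alter only the variance model, the block, the filter or the threshold leave the difference as it is. The kept sign is therefore no separate support. Among the brightest, probe set 4573237 was at -0.0434, -0.0256 and -0.117 after centring on all rows, transcript clusters and the unnamed probe sets, and at -0.0132 to 0.0238 with 1 array left out. Probe set 5173575 was at -0.0394, -0.0216 and -0.113 in these, -0.0197 after quantile normalization, and -0.0168 to 0.0302 with 1 array left out. Neither passed in any.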
